A study of Mus musculus with 3 samples.

Results

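The genes described here encode 9 transcription regulators linked to the naive or quiescent state of T cells, and the interleukin-7 receptor alpha chain. They were chosen by name: every probe set whose single gene symbol in the platform annotation was Tcf7, Lef1, Foxo1, Foxp1, Bach2, Satb1, Id2, Id3, Tob1 or Il7r. This gave 30 probe sets for 9 of the 10 genes, of 45037 non-control probe sets in all, and Tcf7 was not analysed here. A probe set is a group of short oligonucleotides that reads 1 stretch of a transcript, so a gene can have several. Of the 30, 28 had a mean intensity above 71.5, the median of all values, and were tested. The other two were probe set 1456529_at of Foxo1, at 8.71 and 14.4 on the HFD arrays and 26.0 on the ND array, and 1440844_at of Tob1, at 30.9 and 18.0 on the HFD arrays and 38.8 on the ND array.

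RNA came from memory phenotype CD4 T cells, the fraction of helper T cells with the surface features of past activation, sorted from the spleens of BALB/c mice. The mice had eaten for 10 weeks a high fat diet (HFD), in which fat gave 60 kcal%, or a normal diet (ND). The HFD group held 2 Affymetrix arrays and the ND group 1. The labels give no age, nor do they tell separate mice from pools or repeats of 1 sample, so the spread behind each p-value is that between the samples at hand and could be technical only.

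Naive T cells circulate through lymphoid organs without dividing, and depend on interleukin-7 for survival. LEF1 and its relative TCF1, encoded by Tcf7, are HMG-box factors that can act with beta-catenin. FOXO1 is a forkhead factor that drives genes of homing and survival, Il7r among them, and is kept out of the nucleus when AKT phosphorylates it. FOXP1, another forkhead factor, maintains naive T cell quiescence and opposes FOXO1 at Il7r in mice. BACH2 represses effector genes, SATB1 organises chromatin in T cells, ID2 and ID3 block the DNA binding of E proteins, and TOB1 is an antiproliferative protein that binds a deadenylase complex.

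The promoter of Bach2, the member with the largest difference, is shown. Those of Foxo1, Id2 and Il7r, which were lower in HFD on every probe set tested, are shown too. They were searched for short DNA motifs bound by forkhead factors, by TCF1 and LEF1, and by the E proteins that ID2 and ID3 block. The sequences are RefSeq promoters of mouse build GRCm38.p6, 250 bases before to 50 after the annotated start, read 5′ to 3′ on the gene's strand. Capitals mark matches to 3 motifs on either strand: the E box CANNTG, bound by E proteins, the forkhead core TGTTTA, and CTTTGA, the core recognised by TCF1 and LEF1.
Bach2, chr4:32417185-32417484, plus strand: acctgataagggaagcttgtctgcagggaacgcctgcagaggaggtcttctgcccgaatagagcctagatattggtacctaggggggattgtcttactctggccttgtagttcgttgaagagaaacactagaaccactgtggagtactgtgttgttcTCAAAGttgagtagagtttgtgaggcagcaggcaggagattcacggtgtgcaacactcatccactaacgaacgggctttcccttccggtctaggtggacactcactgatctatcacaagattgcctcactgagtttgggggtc
Foxo1, chr3:52268087-52268386, plus strand: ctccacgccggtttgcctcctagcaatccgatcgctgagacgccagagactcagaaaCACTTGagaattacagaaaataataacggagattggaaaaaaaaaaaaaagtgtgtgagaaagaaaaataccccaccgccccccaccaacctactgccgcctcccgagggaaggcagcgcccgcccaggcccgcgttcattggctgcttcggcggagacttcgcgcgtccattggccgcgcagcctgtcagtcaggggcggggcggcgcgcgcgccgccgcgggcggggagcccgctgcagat
Id2, chr12:25096043-25096342, minus strand: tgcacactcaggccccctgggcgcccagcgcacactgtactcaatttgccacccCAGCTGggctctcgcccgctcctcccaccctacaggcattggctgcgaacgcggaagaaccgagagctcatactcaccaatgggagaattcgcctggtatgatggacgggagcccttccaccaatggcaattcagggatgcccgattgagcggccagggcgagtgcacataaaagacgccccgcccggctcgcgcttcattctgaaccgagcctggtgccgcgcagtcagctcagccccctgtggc
Il7r, chr15:9529827-9530126, minus strand: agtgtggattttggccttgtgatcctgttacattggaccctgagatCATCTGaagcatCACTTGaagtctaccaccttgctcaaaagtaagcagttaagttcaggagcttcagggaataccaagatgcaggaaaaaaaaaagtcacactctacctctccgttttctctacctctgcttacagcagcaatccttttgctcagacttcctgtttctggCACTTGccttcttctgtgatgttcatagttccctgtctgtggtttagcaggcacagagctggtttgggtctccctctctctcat

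The Bach2 window held 1 TCF and LEF core and no E box, and the Foxo1 and Id2 windows held 1 E box each. The Il7r window held 3 E boxes. RefSeq gave 20 promoters for the 10 genes, of which 16 held an E box, 5 a forkhead core and 3 a TCF and LEF core. Some genes have several promoters, and these matches came from 7, 3 and 3 genes. Among all 32851 promoters of the same length the shares were 72.3%, 13.4% and 16.0%. None of the 4 windows printed held the forkhead core, and a match or its lack in this window is a description of letters only.

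The members split by gene and not as a block. Bach2, Foxp1 and Satb1 had probe sets that were higher in HFD, Foxo1, Id2, Tob1 and Il7r were lower on every probe set tested, and neither Lef1 nor Id3 passed the test. In limma's moderated test with Benjamini-Hochberg adjustment over all probe sets, 8 of the 28 member probe sets rose and 9 fell at an adjusted p under 0.05. Those are 28.6% and 32.1% of the members tested, against 17.0% called higher and 24.4% called lower of 22510 probe sets. Calls were thus common throughout the arrays, and 41.3% of all probe sets were called in either direction. With the filter raised to the 75th percentile of all values, 3155 of 11371 probe sets were called higher and 3812 lower. Of the 24 member probe sets past that filter, 9 rose and 9 fell. In the main fit 5 of the 8 higher member calls were of Foxp1. No gene among the members had probe sets called in both directions. In both HFD arrays 1 member probe set was at least 2-fold above ND and 0 were at least 2-fold below, against 5.27% and 2.47% of all probe sets.

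The median member probe set stood 0.14 higher in HFD on the log2 scale, against a median of -0.16 over all probe sets tested. Foxp1 and Satb1 supplied 8 and 5 of the 28 member probe sets, so this median is not one over genes. With each gene read by its brightest probe set, the 9 member genes had a median of -0.05, against -0.15 over all genes. By that reading 3 member genes rose and 4 fell. Both HFD arrays lay above the ND array for 15 member probe sets and below it for 11, while ND lay between them for 2. Over all probe sets tested these shares were 33.9% above and 54.9% below. The HFD arrays differed from each other by a median of 0.12 per member probe set, and their mean differed from ND by a median of 0.55, both as absolute log2 differences. Over all probe sets tested these medians were 0.14 and 0.41. Only the pair of HFD arrays informs the estimate of spread, with 1 residual degree of freedom, on the assumption that ND varies as they do. Since ND is a single sample, diet and any other feature of that sample or its array cannot be told apart.

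**Figure D1:**
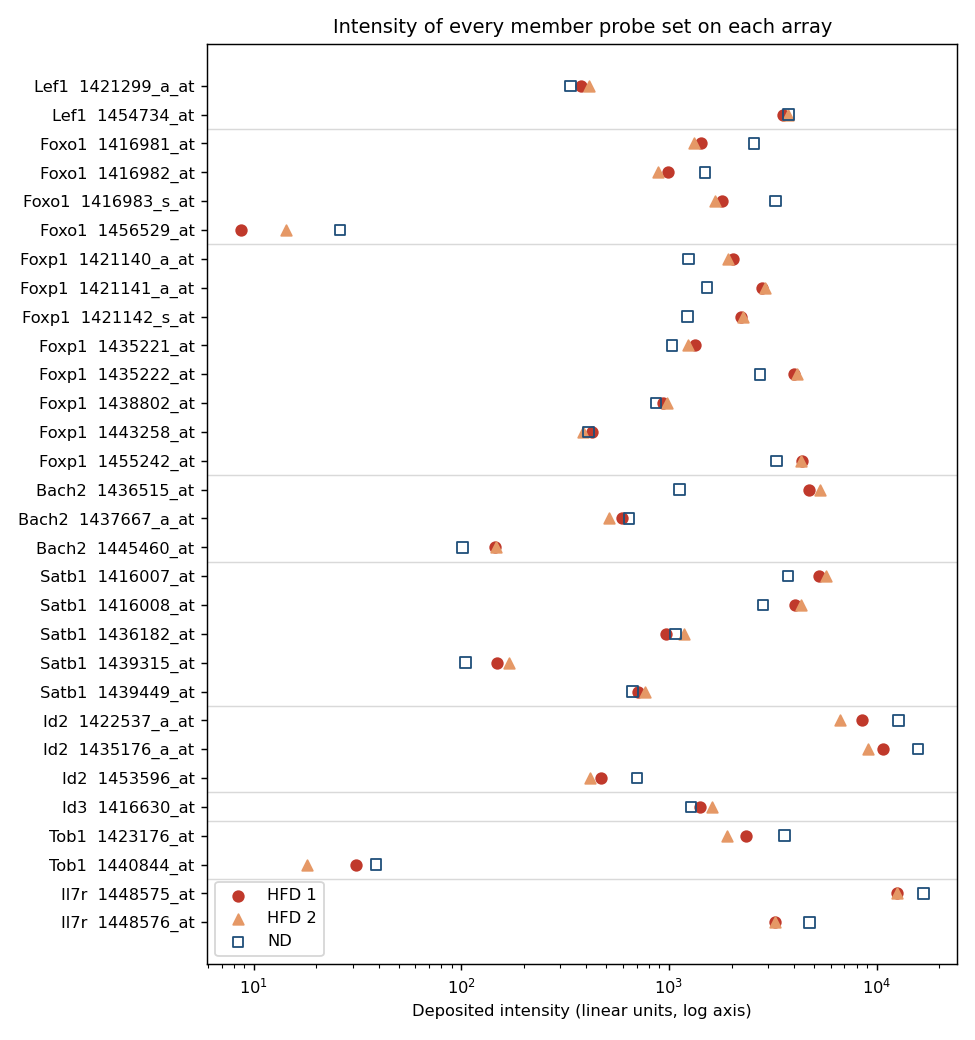
Deposited intensity (log axis) of each of the 30 member probe sets on the arrays HFD 1 (circles), HFD 2 (triangles) and ND (open squares), grouped by gene. For Bach2 1436515_at both HFD points lie far right of ND, all points of Foxo1, Id2, Tob1 and Il7r in HFD lie left of ND, and the HFD and ND points of Lef1 1454734_at nearly coincide.

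Bach2 showed the largest difference among the members, but on 1 of its 3 probe sets. Probe set 1436515_at read 4727 and 5341 in HFD and 1126 in ND, so that the HFD arrays lay at 4.20 and 4.75 times ND. The fold on the log2(intensity + 17.65) scale, which understates changes of dim probe sets, was 4.41 (log2 2.14 ± 0.12 SE, limma adjusted p = 1.2e-07). This placed it at percentile 99.2 of all probe sets tested.

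The other Bach2 probe sets did not pass the test. Probe set 1437667_a_at read 593 and 513 in HFD and 640 in ND (log2 -0.21, 95% interval -0.58 to 0.16, limma adjusted p = 0.351). Probe set 1445460_at was dim, at 145 and 146 in HFD and 101 in ND (log2 0.46, interval -0.15 to 1.06, limma adjusted p = 0.208). The 3 probe sets come from 3 different source sequences in the annotation, and their log2 differences spanned 2.35. Among the 2155 genes with at least 3 probe sets tested this span lay at percentile 99.2, against a median of 0.52. The mean of the 3 was 0.80 higher in HFD (limma adjusted p = 0.0024). Of the 7 B cell markers tested, given with the cell type markers, Ms4a1 and Fcer2a were also far higher in HFD, while 3 fell. The part of B cells in the Bach2 and Foxp1 differences was not tested.

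Foxp1 had 8 probe sets, and their differences grouped by the sequence they were designed on. The 3 probe sets 1421140_a_at, 1421141_a_at and 1421142_s_at share 1 source sequence and all rose, 1.58, 1.86 and 1.82-fold. The middle one read 2797 and 2914 in HFD and 1526 in ND (log2 0.90 ± 0.12 SE, limma adjusted p = 1.1e-04). The suffix _s_at marks probes that can also match transcripts of other genes, so the third of these is the least specific.

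A second trio, 1435221_at, 1435222_at and 1455242_at, shares another source sequence and differed less, by 1.24, 1.48 and 1.31-fold. Of these, 1435222_at read 3999 and 4133 in HFD and 2739 in ND (limma adjusted p = 0.0013), and 1455242_at read 4356 and 4324 in HFD and 3300 in ND (limma adjusted p = 0.0098). Both groups of arrays stayed apart on these probe sets. Probe set 1435221_at read 1337 and 1237 in HFD and 1031 in ND and missed the threshold (limma adjusted p = 0.0956), but passed it with arrays centred (adjusted p = 0.0158).

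The last 2 Foxp1 probe sets, each from a sequence of its own, read close to ND. Probe set 1438802_at gave 937 and 976 in HFD and 864 in ND, and 1443258_at gave 427 and 383 in HFD and 410 in ND, with the arrays of the diets overlapping on the second. In total 5 of the 8 rose, and the mean of all 8 was 0.48 higher in HFD (limma adjusted p = 0.0119).

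Satb1 rose on 2 of 5 probe sets, which share a source sequence. Probe set 1416007_at read 5268 and 5682 in HFD and 3738 in ND, and 1416008_at read 4055 and 4303 in HFD and 2835 in ND. Both HFD arrays lay above ND on each, by 1.46 and 1.47-fold (limma adjusted p = 0.0012 and 0.0016). The dim probe set 1439315_at had a difference of like size, with 149 and 171 in HFD and 105 in ND, but an interval from -0.06 to 1.12 (limma adjusted p = 0.137). The remaining Satb1 probe sets, 1436182_at and 1439449_at, differed by -0.01 and 0.14 on the log2 scale (limma adjusted p = 0.965 and 0.512). With the 5 probe sets averaged, Satb1 was 0.35 higher in HFD and missed the threshold (limma adjusted p = 0.0571).

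Foxo1 was lower in HFD on all 3 probe sets tested, which come from 1 source sequence and so are not separate evidence. The brightest, 1416983_s_at, read 1806 and 1664 in HFD and 3259 in ND. Its suffix marks it, like the third Foxp1 probe set, as one whose probes can also match transcripts of other genes. Probe set 1416981_at read 1428 and 1313 in HFD and 2562 in ND, and 1416982_at read 994 and 886 in HFD and 1492 in ND. Both HFD arrays lay below ND throughout, by 1.87, 1.86 and 1.58-fold (limma adjusted p = 1.4e-04, 2.3e-04 and 0.0037). On the log2 scale the brightest stood 0.90 ± 0.12 (SE) below ND, or 0.74 below the median of all probe sets.

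Id2 was lower in HFD on its 3 probe sets, from 3 source sequences, and they differed little from one another. Probe set 1435176_a_at read 10740 and 9035 in HFD and 15806 in ND. Probe set 1422537_a_at read 8461 and 6673 in HFD and 12723 in ND, and the dimmer 1453596_at read 471 and 416 in HFD and 700 in ND. HFD 2 was the lower of the HFD arrays on all 3, and both arrays stayed below ND. The falls were 1.60, 1.69 and 1.56-fold (limma adjusted p = 2.3e-04, 3.8e-04 and 0.0110), a span of 0.12 on the log2 scale that lay at percentile 5.43 among genes with at least 3 probe sets. With no intensity filter the call of 1453596_at ended (adjusted p = 0.0604).

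Id3, the relative of Id2, has 1 probe set and did not pass the test. It read 1409 and 1603 in HFD and 1274 in ND, with both HFD arrays above ND (log2 0.23, 95% interval -0.07 to 0.54, limma adjusted p = 0.203). It passed the threshold with arrays centred (adjusted p = 0.0472). Whether the differences of Id2 and Id3 differ from each other was not tested.

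Tob1 fell 1.70-fold on its tested probe set 1423176_at, which read 2337 and 1912 in HFD and 3601 in ND (log2 -0.76 ± 0.14 SE, limma adjusted p = 8.9e-04). HFD 2 was again the lower of the HFD arrays.

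Il7r fell on both probe sets, by less than the members above. Probe set 1448575_at read 12597 and 12501 in HFD and 16783 in ND, and 1448576_at read 3228 and 3242 in HFD and 4743 in ND. The HFD arrays nearly coincided and lay below ND, by 1.34 and 1.46-fold (limma adjusted p = 9.2e-04 and 0.0015). Relative to the median of all probe sets the differences were -0.25 and -0.39 on the log2 scale. With arrays centred the first missed the threshold (adjusted p = 0.0832).

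Lef1 did not pass the test on either probe set. The bright 1454734_at read 3540 and 3751 in HFD and 3772 in ND (log2 -0.05, 95% interval -0.28 to 0.19, limma adjusted p = 0.742), with HFD 2 close to ND. The dimmer 1421299_a_at read 375 and 410 in HFD and 336 in ND (log2 0.21, interval -0.19 to 0.62, limma adjusted p = 0.380).

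**Figure D2:**
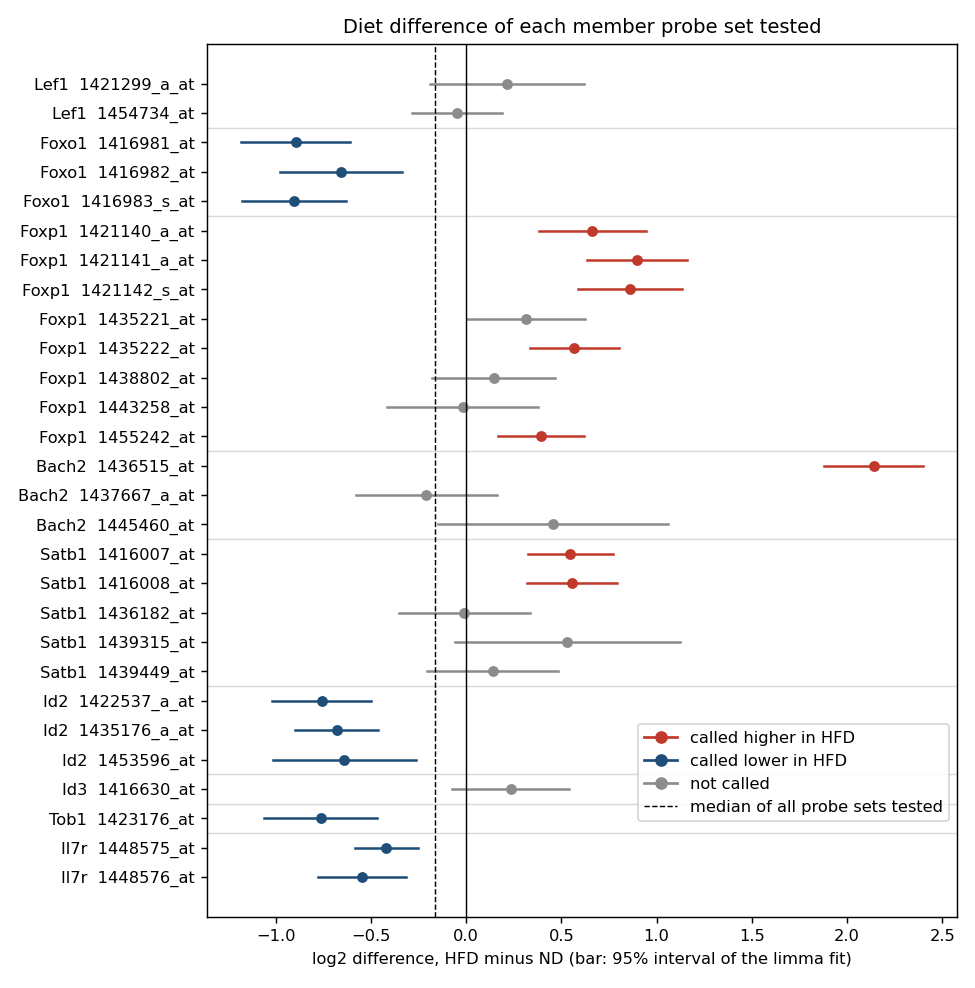
The log2 difference of HFD minus ND for each of the 28 member probe sets tested, with 95% intervals of the limma fit, in red where called higher in HFD, blue where called lower and grey where not called. The solid line is at 0 and the dashed line at -0.16, the median of all 22510 probe sets; Bach2 1436515_at lies furthest out at 2.14.

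Calls for 6 member probe sets held in every setting that tested them one by one: Bach2 1436515_at, the first Foxp1 trio, and Foxo1 1416981_at and 1416983_s_at. Without a variance trend, which shares the spread among probe sets of like intensity, the other 11 calls ended. Their adjusted p-values were then 0.0511 for the third Foxo1 probe set, 0.0525 for Tob1, 0.0547 to 0.0606 for Id2, 0.0583 and 0.0975 for Il7r, 0.0600 and 0.0638 for Satb1, and 0.0560 and 0.110 for the second Foxp1 trio. In bulk RNA, fewer cells of a type and less RNA per cell cannot be told apart.

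**Figure D3:**
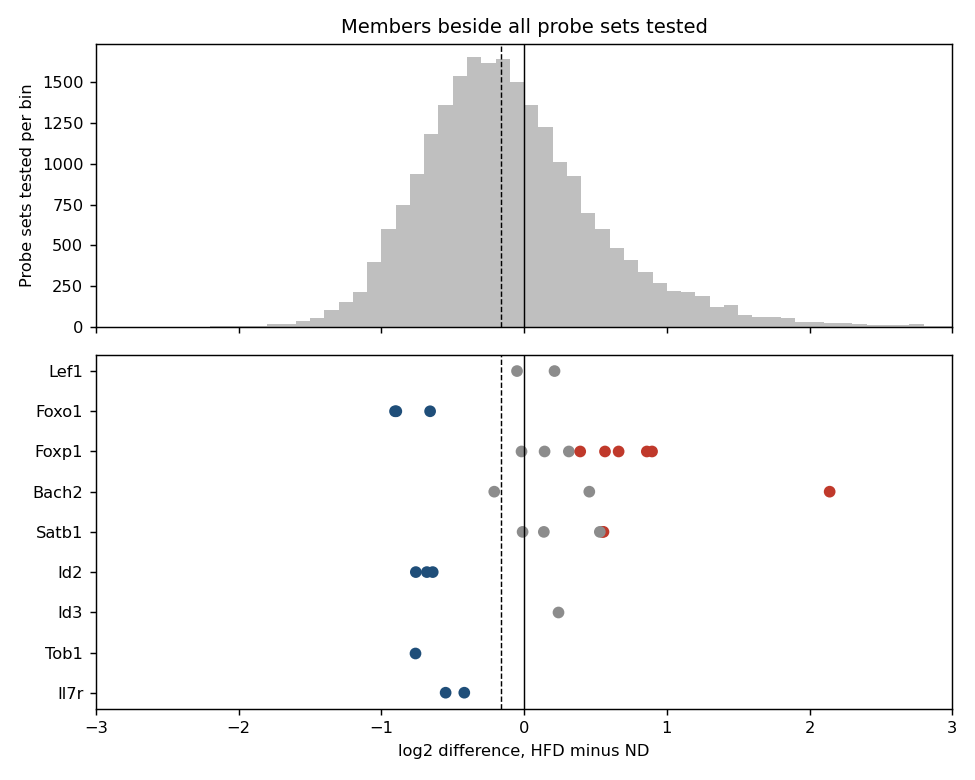
Top, number of probe sets per bin of 0.1 in the log2 difference of HFD minus ND, over all probe sets tested (44 lie outside the axis). Bottom, the member probe sets of each gene on the same axis, red for higher in HFD, blue for lower and grey for not called. Foxo1, Id2, Tob1 and Il7r lie left of the dashed median, and all Foxp1 and Satb1 probe sets lie right of it.

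The genes that work with these members were followed in lists, each gene read by its brightest probe set. The background is 10339 genes, of which 19.6% were called higher and 27.1% lower, with a median log2 difference of -0.15. All adjusted p-values below come from the same limma fit. Ctnnb1, Foxp3, Foxk2, Ywhag, Ywhaq, Ywhaz, Ywhab, Ywhah, Bcl2l11, Klf2, S1pr1, Btg1, Cnot4, Pabpc1, Nfe2l2, Gfi1, Cblb, Dapl1, Myb, Cd72, Cd79a and Pax5 are named for their role or to complete small counts and were chosen after their values were seen.

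Of 14 partners of TCF1 and LEF1 tested, 6 fell, 0 rose and 8 were, like Lef1, not called, with a median of -0.40. Axin2, a feedback inhibitor and target of the beta-catenin pathway, read 627 and 480 in HFD and 1028 in ND (1.85-fold lower, adjusted p = 0.0023). The corepressor gene Tle4 and its relative Tle5 fell 1.61 and 1.59-fold, and Apc, a scaffold of the complex that degrades beta-catenin, fell 1.60-fold. The 2 other Tle4 probe sets ranged from -0.69 to 0.05 on the log2 scale. Ctnnb1, which encodes beta-catenin, read 10389 and 10443 in HFD and 9875 in ND (adjusted p = 0.476).

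Among 12 forkhead relatives 5 fell and 1 rose, with a median of -0.49. Foxo3, a close relative of Foxo1, read 1192 and 980 in HFD and 2522 in ND (2.31-fold lower, adjusted p = 6.4e-05), and Foxo4 read 170 and 163 in HFD and 282 in ND (1.63-fold lower, adjusted p = 0.0265). Both HFD arrays lay below ND for each. The Foxo4 call ended after quantile normalization and with arrays centred (adjusted p = 0.0806 and 0.0506), and with arrays centred 4 of the 12 fell and 1 rose. Foxj2, Foxn3 and Foxp3, the factor of regulatory T cells, also fell, with log2 differences of -0.72, -0.64 and -0.59. Foxk2 rose 1.41-fold, with other probe sets at -0.31 to 1.01 on the log2 scale.

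Of 16 genes that control FOXO proteins through PI3K and AKT, 7 fell and 2 rose, with a median of -0.22; with arrays centred 3 fell and 4 rose, so no direction holds for the list. Pik3r1, the regulatory subunit of PI3K, read 1337 and 1030 in HFD and 2343 in ND (1.98-fold lower, adjusted p = 4.8e-04), and its 3 other probe sets gave -0.96 to -0.94. The lipid phosphatase Inpp5d and the kinase Sgk1, which phosphorylates FOXO proteins, fell 1.59 and 1.71-fold. Ywhae and Ywhag, which encode proteins of the 14-3-3 family that bind phosphorylated FOXO, rose by 0.75 and 0.58 on the log2 scale. The family did not move as a whole. Ywhaq fell by 0.29 (adjusted p = 0.0108), a call that ended with arrays centred (adjusted p = 0.361). Ywhaz, Ywhab and Ywhah gave 0.08, -0.15 and 0.14 and were not called.

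Known FOXO1 targets were mostly lower, but not all. Of 13 tested, 10 fell, 2 rose and 1 was not called, with a median of -0.78. Ccr7, the receptor that guides cells into lymph nodes, read 6328 and 7136 in HFD and 1396 in ND (4.77-fold higher, adjusted p = 5.2e-08), and the death gene Bcl2l11 rose 2.01-fold. Those that fell included Bcl6, the repressor that directs follicular helper cells (2.49-fold), the inhibitory receptor Ctla4 (4345 and 4685 in HFD, against 9035 in ND) and the cyclin gene Ccng2 (1.99-fold). Both activated and repressed targets are on the list.

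In the small families around Bach2 and Id2 the shares called higher and lower did not exceed those of all genes. Of 8 genes of BACH1, small MAF proteins and their partners, 2 fell and 1 rose (median -0.41): Bach1, the relative of Bach2, fell 1.59-fold with 697 and 710 in HFD and 1132 in ND (adjusted p = 0.0038), Nfe2l2 fell 1.45-fold and Mafg rose 1.35-fold. Hmox1, a target repressed by BACH1, read 110 and 116 in HFD and 197 in ND, and the dim Maff read 54.9 and 72.1 in HFD and 102 in ND, and neither passed the test (adjusted p = 0.0508 and 0.241). Of 5 E proteins and ID relatives, 1 fell and 0 rose (median -0.20): Tcf4, an E protein gene, read 368 and 412.5 in HFD and 804 in ND (2.02-fold lower, adjusted p = 6.8e-04), while Tcf3, Tcf12 and the corepressor gene Cbfa2t2 gave 0.28, -0.20 and -0.23 on the log2 scale and were not called. With arrays centred 1 of the 5 fell and 1 rose.

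Of 11 chromatin organisers listed with Satb1, 4 fell and 0 rose (median -0.17), and with arrays centred 2 fell and 2 rose. The T cell nuclear factor Tox fell 2.02-fold, Nipbl, a loader of cohesin, fell 1.60-fold, and Rad21 and Ctcf fell 1.35 and 1.28-fold, calls that ended with arrays centred (adjusted p = 0.0772 and 0.193). Of 14 genes of the TOB and BTG family and the CCR4-NOT deadenylase, which shortens poly(A) tails, 5 fell and 2 rose (median -0.10). Btg2, an antiproliferative relative of Tob1, read 4949 and 3459 in HFD and 8111 in ND (1.96-fold lower, adjusted p = 5.4e-04). Tob2, Cnot6l, Btg1 and Cnot4 fell 1.18 to 1.39-fold, and Cnot9 and Pabpc1 rose 1.52 and 1.14-fold. The other Pabpc1 probe set stood 0.46 lower in HFD on the log2 scale, against its brightest. With arrays centred 2 of the 14 fell and 1 rose, the median was 0.03, and the calls of Tob2, Btg1, Cnot4 and Pabpc1 ended (adjusted p = 0.215, 0.545, 0.239 and 0.0614). That of Pabpc1 also ended after quantile normalization (adjusted p = 0.801).

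Of 17 genes of interleukin-7 receptor signalling 8 fell and 2 rose, with a median of -0.33. The kinase gene Jak1, which binds the alpha chain, read 6504 and 6463 in HFD and 9188 in ND (1.42-fold lower, adjusted p = 8.5e-04). The 2 genes of the signal transducer STAT5 went opposite ways: Stat5a read 1112 and 1121 in HFD and 727 in ND (1.52-fold higher, adjusted p = 0.0056), and Stat5b read 1423 and 1229 in HFD and 2118 in ND (1.59-fold lower, adjusted p = 0.0025). The other probe set of Stat5b stood 0.54 higher in HFD, against its brightest. Runx1, a factor of T cell development, fell 2.19-fold, and Gfi1, a repressor of Il7r in mouse CD8 T cells, rose 1.28-fold.

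Of 17 other quiescence genes 14 fell and 0 rose, with a median of -0.54; with arrays centred 9 fell and 0 rose. These counts take the brightest probe set of each gene. Cblb fell by 0.44 on the log2 scale on that probe set, while its 2 other probe sets stood 0.38 and 0.71 higher in HFD. Klf4, a Kruppel-like repressor of T cell division, fell 3.89-fold. Rbl2, a pocket protein that represses cell cycle genes, read 1592 and 1503 in HFD and 3350 in ND (2.15-fold lower, adjusted p = 3.1e-05). Mxd4, an antagonist of MYC, and Zfp36, which destabilises cytokine transcripts, fell 2.13 and 2.10-fold.

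Other genes typical of naive T cells moved both ways. Of 12 tested, 3 rose and 8 fell, with a median of -0.65. Igfbp4, Actn1 and Dapl1 rose 2.28, 1.79 and 1.72-fold, and Nsg2 and Ramp1 fell 2.12 and 2.11-fold. Of 15 effector and memory factors 2 rose and 8 fell, with a median of -0.35. Irf4, induced by antigen receptor signals, read 5483 and 6613 in HFD and 910 in ND (6.51-fold higher, adjusted p = 3.5e-08), with its other probe set at 1.08 against 2.70 on the log2 scale, and Myb rose 1.92-fold. Gata3, Maf and Zbtb16 fell 2.04, 1.85 and 2.06-fold.

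**Figure D4:**
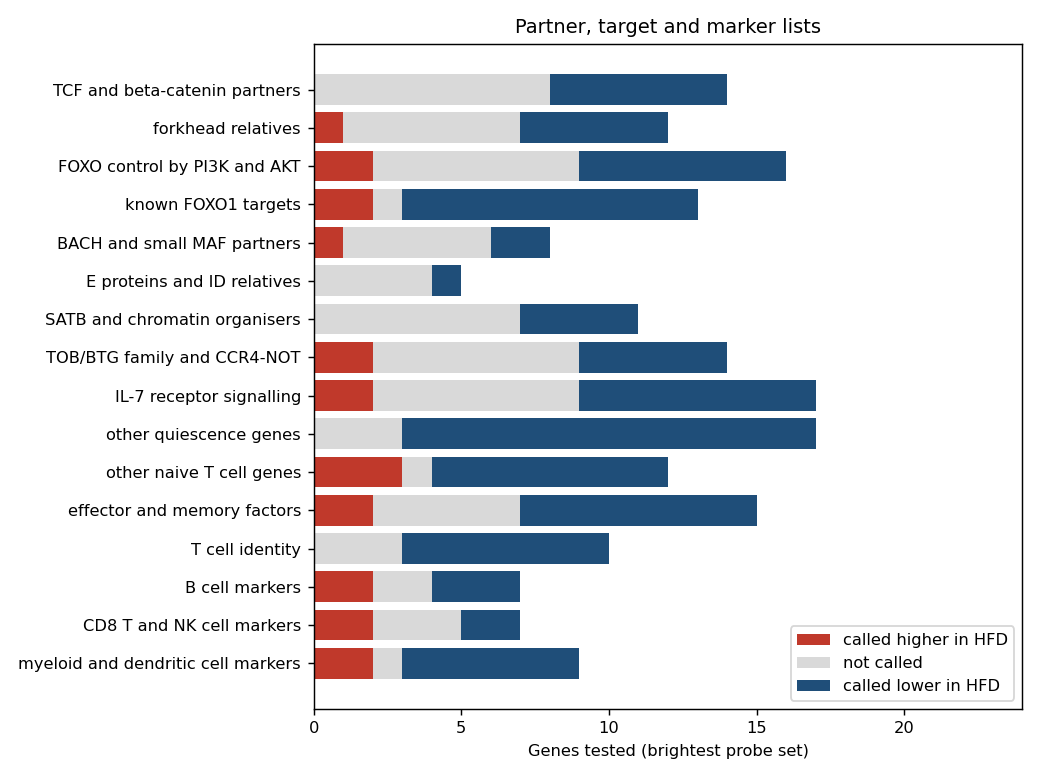
Number of genes tested in each list, by brightest probe set, split into those called higher in HFD (red), not called (grey) and called lower in HFD (blue). Falls outnumber rises in 15 of the 16 lists, and in 12 with arrays centred; other quiescence genes have 14 of 17 lower, and CD8 T and NK cell markers have 2 each way.

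T cell markers were read on all 3 arrays. Cd3e read 2558 and 2426 in HFD and 4167 in ND, Cd3g read 12556 and 12042 in HFD and 16273 in ND, Cd4 read 609 and 377 in HFD and 911 in ND, and Cd44, the marker of memory phenotype, read 5623 and 5700 in HFD and 9761 in ND. Of 10 T cell identity genes 7 fell and 0 rose (median -0.36), and 3 fell with arrays centred, Cd3g no longer among them (adjusted p = 0.103). Bach2 and Foxp1 are also expressed by B cells, so B cell markers are set beside them. Of 7 tested 2 rose and 3 fell (median -0.27): Ms4a1 read 1612 and 1837 in HFD and 56.8 in ND, and Fcer2a read 524 and 644 in HFD and 31.6 in ND, while Cd22 and Spib fell 1.68 and 1.65-fold and Cd72 1.47-fold. The Spib call ended after quantile normalization (adjusted p = 0.0528). Summed over the 11 annotated B cell markers, intensity was 4091 and 4438 in HFD and 2888 in ND. Ms4a1 and Fcer2a make up much of the HFD sums and little of the ND sum, so the sums do not describe the markers as a set. Among other defining B cell genes, Cd79a and Pax5 were below the intensity filter, with Cd79a at 51.2 and 49.4 in HFD and 5.74 in ND, and Pax5 at 27.0 and 6.86 in HFD and 65.1 in ND.

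Of 9 myeloid and dendritic cell markers 6 fell and 2 rose (median -1.02). Csf1r read 224 and 296 in HFD and 743 in ND, Flt3 read 71.3 and 62.1 in HFD and 188 in ND, and the rises were the granule genes S100a8 and S100a9. The 12 annotated markers summed to 1771 and 2024 in HFD and 3427 in ND. Of 7 CD8 T and NK cell markers 2 rose and 2 fell (median 0.17). Cd8a and Gzma rose by 0.91 and 0.89 on the log2 scale, and Fcer1g and Tyrobp, which myeloid cells also express, gave -1.13 and -1.26. The list had sums of 2657 and 3047 in HFD and 4117 in ND over the 9 annotated. None of the 4 annotated erythroid markers passed the filter. The part of these other cells in the members' differences was not tested.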

How the data were processed

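The authors deposited 1 linear intensity for each probe set of 3 Affymetrix arrays. They used GCOS, Affymetrix's array software, per the submitters' processing notes; its algorithm and background correction were not given in the sources used here. Each array had a mean of 500.0 once the top and bottom 2% were trimmed, which shows scaling to a common mean, so bright transcripts that change shift all others the opposite way. Median intensities were 69.8 and 67.4 in HFD and 78.2 in ND. Without detection calls, dim values and background look alike. With so few arrays, their number limits the precision.

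Of the non-control probe sets, 34945 had 1 gene symbol, 932 several and 9160 none; 34754 symbols were matched by Entrez identifier to the RefSeq gene table of GRCm38.p6, and 0 changed. No coordinates of probe sets are printed. Probe sets were kept where the mean over the arrays exceeded 71.5, transformed as log2(intensity + 17.65), with the 25th percentile of all values as offset, and each fitted on its own by limma 3.58.1 (lmFit, eBayes with a trend, 11.15 prior degrees of freedom) in R 4.3.3. Tests were two-sided and p-values were adjusted by Benjamini-Hochberg over the 22510 probe sets. The model was tested on simulated data in which all probe sets and arrays had the same spread. Such data cannot check whether ND varies as the HFD arrays do. The members and lists were chosen with earlier results of these data known. From each list, up to 4 genes were named, taking those in which both HFD arrays lay on 1 side of ND and the nearer array lay furthest from it. Alternatives covered normalization, offset, filter, merging of probe sets, variance model, call rule and leaving out each HFD array. Tables and figures used Python 3.11.15, pandas 2.3.3, numpy 2.4.6 and matplotlib 3.10.9.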

Additional observations from a re-analysis of the deposited data

How the results depend on the processing

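Of the member values recomputed with a test, 240 of 257 stayed on their side of the threshold, 13 ended a call and 4 gained one, and no called member changed direction. The probe sets Foxp1 1443258_at, Satb1 1436182_at and Lef1 1454734_at, none of them called, changed sign under some alternatives. The counts of members called higher and lower, 8 and 9, became 4 and 2 without a variance trend, 3 and 4 of 9 genes with the brightest probe set per gene, 2 and 4 with probe sets averaged, and 1 and 0 by the rule of at least 2-fold from ND in both HFD arrays. Over all probe sets, 3818 higher and 5487 lower became 2519 and 2869 without a trend, 2117 and 3015 of 10339 genes with the brightest probe set, 1844 and 2638 with probe sets averaged, and 1187 and 556 by the 2-fold rule. With no filter 2629 were higher and 2665 lower. The merged counts cover fewer features; the cause of the other shifts was not tested. Of all calls 41.0% were higher as deposited, 48.0% after quantile normalization and 53.5% with arrays centred. The median of all probe sets was then -0.16, -0.07 and -0.04 on the log2 scale, in that order. Leaving out either HFD array leaves 1 array against 1, so no test or count was possible; member differences then ranged from -0.96 to 2.23. No paired analysis was possible because the ND group has a single array. Dim probe sets limit what can be read for the 2 member probe sets below the filter.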
